A study of Mus musculus with 3 samples.

Results

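GLI3 binding was examined around the T-box genes that act in the limb, Tbx2, Tbx3, Tbx4, Tbx5, Tbx15 and Tbx18. A listed GLI3 peak was assigned to this family when its summit lay within 200 kb of an annotated transcription start site (TSS) of any of these 6 genes, and a peak close to a pair of neighbouring genes was counted once. This gave 61 of the 17149 listed peaks, at 4 loci, because Tbx2 and Tbx4 are neighbours on chromosome 11 and Tbx3 and Tbx5 are neighbours on chromosome 5. Of the 61 peaks, 30 passed a false discovery rate (FDR) under 0.05, the threshold at which the study defines GLI3 binding regions (GBRs), and are called GBRs here. In the whole list 7282 peaks passed it, or 42.5%, and among the T-box peaks the share was 49.2% (95% Wilson interval 37.1 to 61.4).

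GLI3 is a zinc finger transcription factor of the Hedgehog pathway, and in the limb bud it acts largely as a repressor that Sonic hedgehog signalling from the posterior margin relieves. T-box proteins are transcription factors that share a DNA-binding domain and read a short motif, the T-box half-site. Tbx5 starts forelimb outgrowth and Tbx4 acts in the hindlimb. Tbx2 and Tbx3 encode repressors that are expressed along the anterior and posterior margins of the bud and take part in digit patterning. Tbx15 and Tbx18 are close relatives of each other and act in proximal mesenchyme, including that of the shoulder blade.

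Forelimb buds were dissected from E10.5 embryos (32 to 35 somites) of a mixed strain background. The endogenous Gli3 allele carries a 3XFLAG tag, although the genotype label reads wild type, and the tagged protein was recovered through FLAG. The 3 libraries were 2 ChIP replicates, each made from 2 pooled litters of limb buds, and 1 input of chromatin without immunoprecipitation, all with 15 PCR cycles. The measurement used here is 1 peak list without values for either replicate and without read totals. No value below therefore has a replicate error, and no difference could be tested from it. Raw reads, which the study states it deposited, were not used. The study states a minimum sequencing depth, and the exact depth of each library is not known here. A whole-bud sample pools anterior, posterior, proximal and distal cells, no untagged embryos were analysed here, and the list holds no expression values against which the tissue label could be checked.

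Sequences that resemble the GLI consensus GACCACCCA are shown first, since they are the letters a GLI protein is known to read. A match had at most 1 mismatch to that consensus, in a window of 250 bp on either side of the summit, and both strands were read (the reverse complement is TGGGTGGTC). Of the 30 GBRs, 6 held a match, or 20% (interval 9.51 to 37.3), beside 20.8% of all GBRs. In 5 of them the match was inside the peak, while at rank 3164 it lay past the end of the peak. Searching whole peaks gave 16.7%, beside 19.9% of all GBRs. The 61 bases around each of the 6 matches are printed from the plus strand of mm10 with the match in capitals.
Tbx18, rank 964, chr9:87824818-87824878: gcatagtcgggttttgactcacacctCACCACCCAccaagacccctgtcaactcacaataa
Tbx3/Tbx5, rank 3164, chr5:119629023-119629083: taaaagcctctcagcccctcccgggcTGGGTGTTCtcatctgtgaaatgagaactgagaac
Tbx2/Tbx4, rank 4252, chr11:85713660-85713720: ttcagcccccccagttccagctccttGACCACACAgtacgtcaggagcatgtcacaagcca
Tbx2/Tbx4, rank 6316, chr11:85734354-85734414: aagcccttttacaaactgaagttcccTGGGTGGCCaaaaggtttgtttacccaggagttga
Tbx15, rank 6726, chr3:99262267-99262327: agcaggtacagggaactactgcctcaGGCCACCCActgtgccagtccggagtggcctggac
Tbx2/Tbx4, rank 6982, chr11:85633075-85633135: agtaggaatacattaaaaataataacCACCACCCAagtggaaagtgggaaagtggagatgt

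The rank is a peak's place in the list, which runs from the highest log2 enrichment to the lowest. Positions in the consensus are counted from 1 at its 5′ end, and each of the 6 matches differed from it at a single base. The difference was G1C in the peaks of rank 964 and 6982, A2G in those of rank 6316 and 6726, C3A in that of rank 3164 and C7A in that of rank 4252. The exact consensus was found in 0 of the 30 GBRs, which allows a share of up to 10% by the limit of 3 counts and of up to 11.4% by the Wilson interval, and in 2.84% of all GBRs. The centre of the match lay 17 bp from the summit at rank 6982, 21 bp at rank 964 and 40 bp at rank 6726. It lay 93, 112 and 226 bp away at ranks 4252, 6316 and 3164. In windows placed 2 kb to either side of the 30 summits, 4 of 60 held a match (6.67%, interval 2.62 to 15.9), and over all GBRs the share in such windows was 10.7%.

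The T-box half-site AGGTGTGA (reverse complement TCACACCT, both strands searched, no mismatch) was looked for in the same windows, because it is the motif the encoded proteins themselves read. It was in 2 of the 30 GBRs, or 6.67% (interval 1.85 to 21.3), and in 1.63% of all GBRs (119 peaks). The interval reaches down almost to the background, and in whole peaks in place of the windows the half-site was in 1 of the 30 (3.33%, interval 0.591 to 16.7), again beside 1.63% of all GBRs. One of these peaks, the Tbx18 peak of rank 964, also held its GLI match, and the half-site and the GLI match there adjoin with no base between them. The other half-site lay 207.5 bp from the summit of the peak of rank 7151, between Tbx3 and Tbx5 and past the end of that peak. Both are shown with the half-site in capitals, and in the first sequence the capitals run on through the GLI match.
Tbx18, rank 964, half-site and GLI match, chr9:87824816-87824872: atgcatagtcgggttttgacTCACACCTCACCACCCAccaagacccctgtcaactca
Tbx3/Tbx5, rank 7151, half-site, chr5:119804165-119804224: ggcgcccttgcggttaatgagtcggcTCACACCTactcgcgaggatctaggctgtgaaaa

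Both motifs were in the window of 33 of the 7282 GBRs (0.453%). The gap between them was 102 bp at the median, was 10 bp or less without overlap in 4 peaks, and was 0 bp in 1 peak, that of Tbx18. The adjoining pair was singled out after its position was seen. A match of letters is a description and does not show that either factor sits there.

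Each of the 6 genes had more GBRs than the median protein-coding gene, and Tbx18 had the fewest of the 6. Tbx2 had 11 GBRs within 200 kb of a TSS, Tbx3 and Tbx4 had 9 each, Tbx5 and Tbx15 had 7 each, and Tbx18 had 2. Over the 21938 protein-coding genes on placed chromosomes the median was 1 GBR (interquartile range 0 to 3, maximum 27), and 66.2% had at least 1, as did all 6 T-box genes. A count of 11 or more was reached by 1.66% of protein-coding genes, 9 or more by 3.42%, 7 or more by 7.30% and 2 or more by 47.5%. The counts are not independent of each other, since 9 GBRs belong to both Tbx2 and Tbx4 and 6 to both Tbx3 and Tbx5. Leaving out promoter GBRs, the counts were 9 for Tbx2, 7 for Tbx3 and for Tbx4, 6 for Tbx15, 5 for Tbx5 and 2 for Tbx18, beside a median of 0 over protein-coding genes. At least as many distal GBRs were found at 0.387% of genes for Tbx2, 1.19% for Tbx3 and Tbx4, 1.71% for Tbx15, 2.56% for Tbx5 and 15.2% for Tbx18. These genes have few neighbours, with a median of 1 other protein-coding gene within 200 kb beside 7 over all protein-coding genes.

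**Figure D1:**
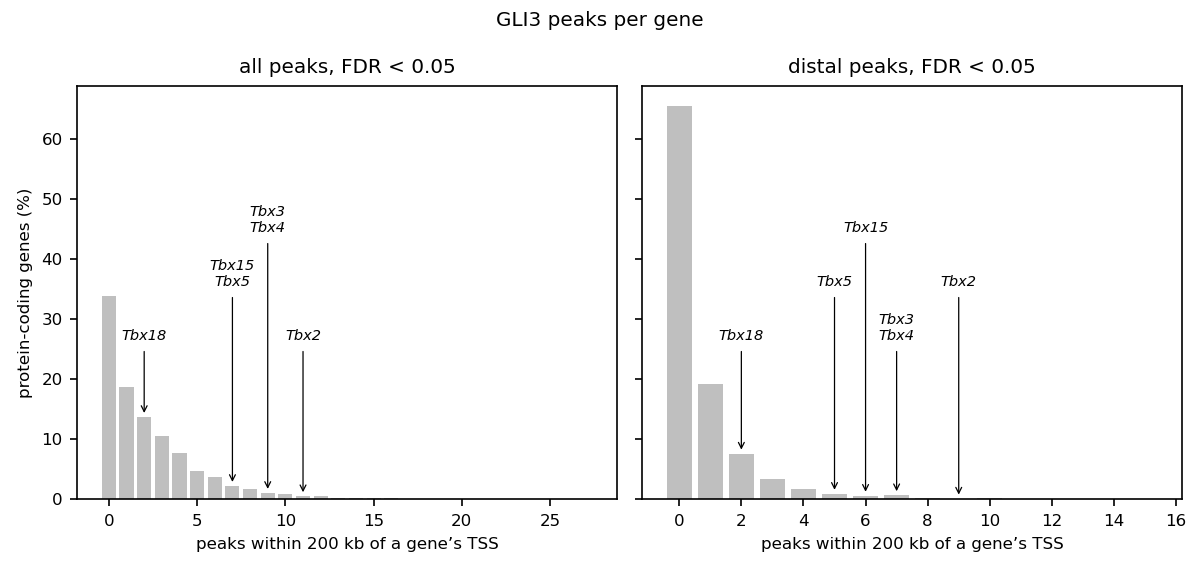
Share of protein-coding genes (%, vertical axis) with each number of GLI3 binding regions within 200 kb of a TSS (horizontal axis), for all regions on the left and for those away from promoters on the right. Arrows mark the 6 limb T-box genes, of which Tbx2 has the most (11 in all, 9 distal) and Tbx18 the fewest (2 and 2).

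At the Tbx2/Tbx4 locus 20 peaks were listed and 11 were GBRs. Tbx2 (ENSMUSG00000000093.6) lies at chr11:85832551-85841948 and Tbx4 (ENSMUSG00000000094.12) at chr11:85886422-85916097 on mm10, both on the plus strand and 44.5 kb apart. The highest GBR of the locus was not at a promoter. It had rank 1205, lay in the intergenic stretch between the genes at chr11:85875950-85876399, 10.1 kb before the nearest Tbx4 TSS, and had a log2 enrichment over input of 3.26 (−log10 of the smallest Poisson p-value 24.8, FDR listed as 0). The next was the Tbx2 promoter peak of rank 2136 (chr11:85832050-85832999), whose summit lay 74 bp before the TSS, with a log2 enrichment of 2.98 and an FDR listed as 0. It is, at 950 bp, the longest of the 30 GBRs.

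The Tbx2 promoter peak was the strongest of a group of 4 GBRs spread over 13.6 kb around the gene. A second promoter GBR (rank 5260) lay in the first part of the gene, 1.18 kb inside it, with a log2 enrichment of 2.49 and an FDR of 0.0114. Its neighbours were a peak 2.49 kb before the TSS in an intron of the noncoding gene 2610027K06Rik (rank 5408, log2 enrichment 2.47) and one 11.1 kb after the TSS (rank 5135, 2.50), for which the nearest protein-coding TSS is that of Gm11444. The listed peak at the Tbx4 promoter (rank 11758), 469 bp after a TSS, had a log2 enrichment of 2.05 and an FDR of 0.438, so it was not a GBR. Behind Tbx4, the peak of rank 3228 lay 21.1 kb after its nearest TSS, past the end of the gene, with a log2 enrichment of 2.75.

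The other 5 GBRs of this locus were far upstream of Tbx2, in introns of the neighbouring gene Bcas3. A pair with summits 470 bp apart (ranks 3145 and 6982, log2 enrichments 2.77 and 2.33) lay 199.9 and 199.4 kb before the Tbx2 TSS, just inside the distance limit. A second pair (ranks 4904 and 4252, 2.53 and 2.61) lay 123 and 119 kb before it, where the antisense gene Bcas3os1 overlaps. The last (rank 6316, 2.39) lay 98.3 kb before it. All 3 GLI matches of the locus were among these Bcas3 peaks, at ranks 4252, 6316 and 6982. No GBR at the Tbx2 promoter or between Tbx2 and Tbx4 held a match in its window.

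At the Tbx3/Tbx5 locus 21 peaks were listed and 10 were GBRs. Tbx3 (ENSMUSG00000018604.18) lies at chr5:119670669-119684724 and Tbx5 (ENSMUSG00000018263.11) at chr5:119832668-119885219, both on the plus strand and 148 kb apart. The Tbx3 promoter held the highest-ranked of all 30 GBRs. This peak (rank 819, chr5:119670500-119671399, 900 bp) had its summit in the 5′ UTR, 184 bp after the nearest of the annotated Tbx3 TSSs, with a log2 enrichment of 3.45, a −log10 Poisson p-value of 29.4 and an FDR listed as 0. A second promoter GBR (rank 4834) had its summit 492 bp before the first Tbx3 TSS and 1025 bp from that of rank 819, with a log2 enrichment of 2.53 and an FDR of 0.00706. A further listed peak at the promoter (rank 15745, log2 enrichment 1.85) had an FDR of 1. Upstream, a pair of GBRs 880 bp apart (ranks 2145 and 3164) lay 41.0 and 41.8 kb before Tbx3, inside introns of the antisense gene Tbx3os1 and of the noncoding gene Gm16063. Their log2 enrichments were 2.98 and 2.77, and the window of rank 3164 held the only GLI match among the GBRs of this locus, outside the peak itself.

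Tbx5, the forelimb gene of the family, had no listed peak at its promoter. The nearest listed summit was 10.6 kb after the TSS, in an intron of Tbx5 (rank 5592), with a log2 enrichment of 2.46 and an FDR of 0.0114. Between the Tbx3 and Tbx5 gene bodies 7 peaks were listed and 3 were GBRs, and these 3 lay together over 8.51 kb. The strongest (rank 2492, log2 enrichment 2.90, FDR listed as 0) was 39.2 kb before the Tbx5 TSS, and the others (ranks 6901 and 7151, 2.34 and 2.32, FDR 0.0374) were 34.2 and 30.7 kb before it. Another 3 listed peaks fell in the same interval without reaching the threshold, at ranks 7489, 8508 and 14223, with FDRs of 0.0704, 0.133 and 0.727. At the edges of the locus, rank 4843 (log2 enrichment 2.53) lay 190 kb before Tbx3, and rank 6965 (2.33) lay 174 kb after the Tbx5 TSS and closer to Rbm19.

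At Tbx15 (ENSMUSG00000027868.11, chr3:99240381-99354259, plus strand) 14 peaks were listed and 7 were GBRs. The GBRs were mostly inside the gene. A group of 4 spread over 13.4 kb around the TSS of its annotated basic transcript held the highest one of the locus, rank 1184 (chr3:99248450-99249249, 800 bp), in an intron 4.93 kb before that TSS. Its log2 enrichment was 3.27 and its −log10 Poisson p-value 26.7. The peak of rank 2858 lay 3.97 kb before the TSS with a log2 enrichment of 2.82. The promoter GBR of the gene was rank 3746, 533 bp before the TSS, with a log2 enrichment of 2.68 and an FDR of 0.00228. The fourth member, rank 6726, lay 8.50 kb after the TSS with a log2 enrichment of 2.36 and an FDR of 0.0374, and held the only GLI match among the GBRs of the locus.

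At the annotated 5′ end of Tbx15, which lies upstream of that TSS, the listed peak of rank 15110 had a log2 enrichment of 1.88 and an FDR of 0.807, so it was not a GBR. Further into Tbx15 there were intronic GBRs of rank 2737, 24.3 kb after the TSS, and rank 3314, 58.5 kb after it, with log2 enrichments of 2.84 and 2.74. Rank 4591 lay past the gene, 194 kb after the TSS (2.56). The median length of the Tbx15 GBRs was 700 bp, beside 400 bp over all GBRs. With 7 peaks the range was 350 to 800 bp.

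Tbx18 (ENSMUSG00000032419.8, chr9:87702800-87731260, minus strand) had the fewest listed peaks, 6, and 2 GBRs, neither near the gene. The stronger is the peak of rank 964 (chr9:87824650-87825249, 600 bp), in intergenic DNA 93.6 kb before the TSS, which carries the adjoining half-site and GLI match printed above. Its log2 enrichment was 3.38, higher than in 86.7% of GBRs, and its −log10 Poisson p-value 43.8, higher than in 91.6% of GBRs and the highest of the 30. The other GBR, rank 4963, lay 174 kb after the TSS with a log2 enrichment of 2.52 and a −log10 Poisson p-value of 21.6. At the Tbx18 promoter, the listed peak of rank 14472 lay 348 bp after the TSS in the 5′ UTR and had a log2 enrichment of 1.91 and an FDR of 0.782. The other 3 listed peaks were within 20 kb of the TSS, and none passed the threshold.

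**Figure D2:**
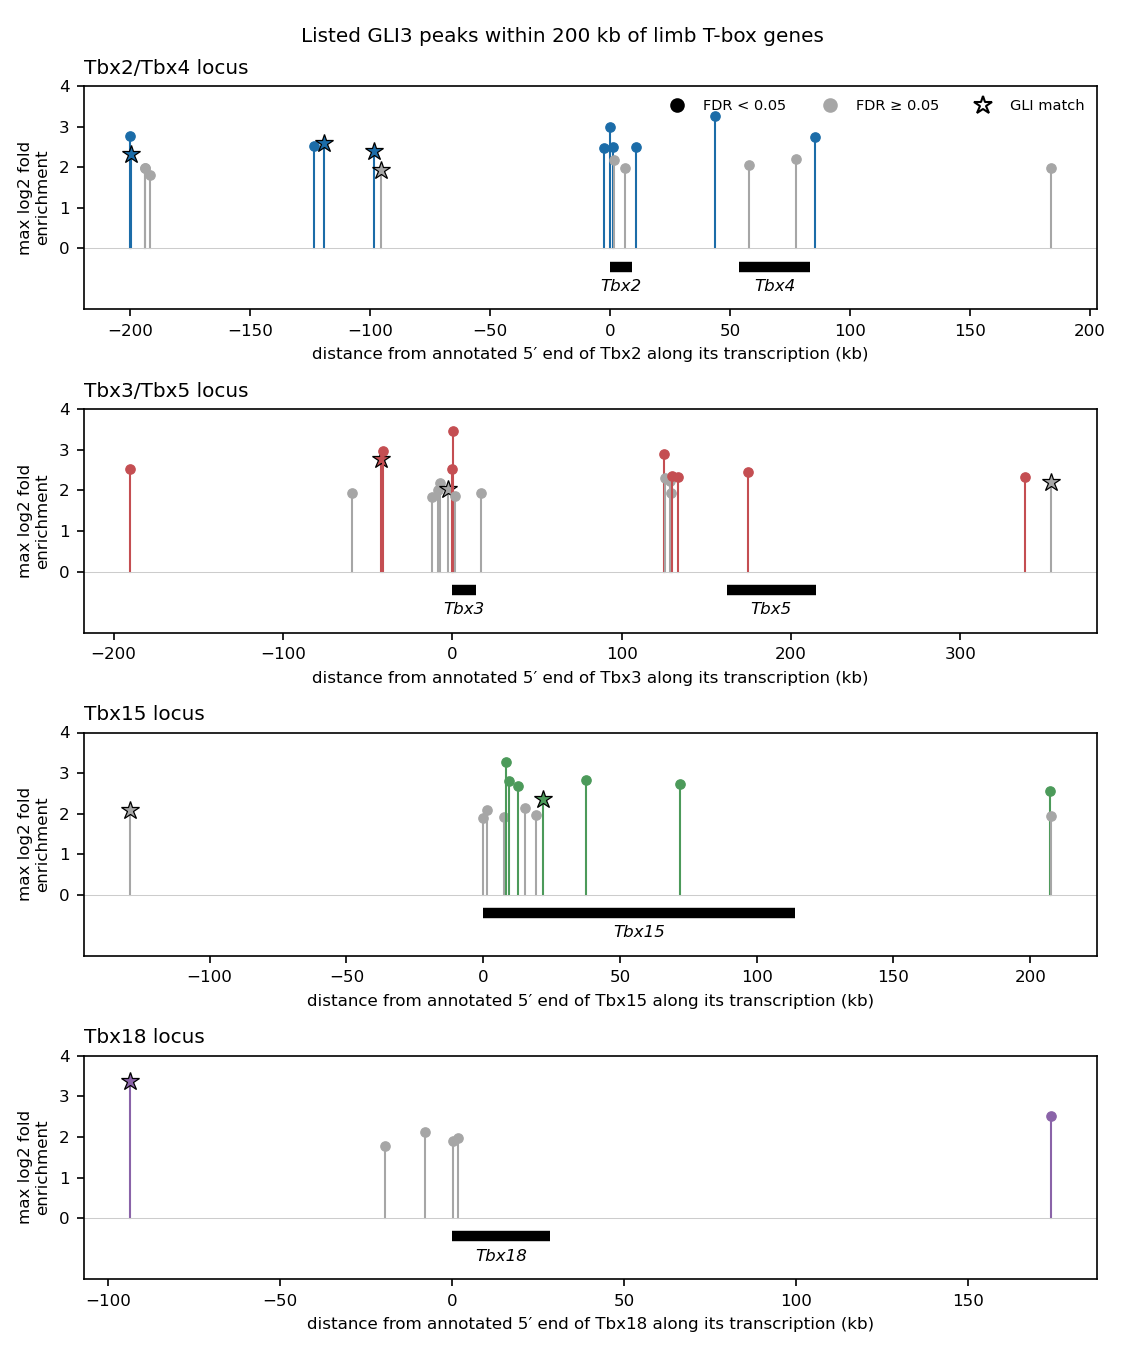
The 61 listed peaks along the 4 loci, each a vertical line whose height is the maximum log2 fold enrichment over input, at its distance in kb from the annotated 5′ end of Tbx2, Tbx3, Tbx15 or Tbx18 in the direction of transcription. Coloured lines have an FDR under 0.05, grey lines do not, stars mark a GLI match, and black bars are gene bodies. The Tbx2 and Tbx3 promoters carry coloured lines, while those of Tbx4, Tbx5 and Tbx18 do not.

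GBRs stood at the promoters of Tbx2, Tbx3 and Tbx15 and not at those of Tbx4, Tbx5 and Tbx18. A promoter is here the span from 2 kb before to 1 kb after a TSS of a protein-coding transcript, touched by at least 1 base of the peak. Of the 30 GBRs 5 were at a promoter, or 16.7% (interval 7.34 to 33.6), while 52.6% of all GBRs were. The upper end of the interval is under the share of the whole list. However, the interval treats grouped peaks as independent, so it is too narrow and is not a test. The number of promoters within reach is small at these loci, as the counts of neighbouring genes above show, and its part in the difference was not tested. The median distance from a GBR to the nearest protein-coding TSS was 32.4 kb, beside 1.08 kb over all GBRs. Among the 25 distal GBRs it was 41.0 kb, beside 45.4 kb over all distal GBRs. The rule keeps only peaks within 200 kb of a member TSS, which caps both medians of the T-box GBRs. The distances over the whole list have no such cap, so neither comparison is between like sets.

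GC content followed the same split. The median over the same windows was 50.9% for the 30 GBRs and 58.7% for all GBRs, and it was 50.1% and 50.3% when only distal GBRs were taken. The GLI match share among distal GBRs was 24% (6 of 25, interval 11.5 to 43.4), beside 24.0% of all distal GBRs. All 6 matches were in distal peaks. Of the highest GBRs of the 4 loci, ranks 819, 1184 and 1205 held no match and rank 964 did.

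Many of the T-box GBRs lay in groups. Of the 30, 19 had another GBR summit within 10 kb, or 63.3% (interval 45.5 to 78.1), beside 31.8% of all GBRs. Neighbours count each other, so these 19 are not independent and the interval is too narrow. No share was computed for distal GBRs alone, and the difference was not tested. Joining summits closer than 10 kb gave 18 groups, 7 with several summits and 11 with 1. The largest were the groups of 4 at the Tbx2 promoter and around the basic-transcript TSS inside Tbx15. Counted outward from the nearest TSS of the 6 genes, 8 GBRs lay within 5 kb, 12 within 20 kb, 19 within 50 kb, 22 within 100 kb and 24 within 150 kb. Upstream of that TSS there were 19 and downstream 11. The selection rule uses these same distances, and no such counts were made over all GBRs. The side also depends on which gene of a neighbouring pair is nearest. A GBR between the genes of a pair can be upstream of the nearest gene and downstream of the other. Whether the GBRs favour either side was not tested.

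The enrichment of these GBRs was moderate. Their log2 enrichment ran from 2.32 to 3.45 with a median of 2.58 (interval from the order of the values 2.50 to 2.77), and the median over all GBRs was 2.69 in a range up to 6.37. By locus the median was 2.53 at Tbx2/Tbx4, 2.53 at Tbx3/Tbx5, 2.74 at Tbx15 and 2.95 for the 2 GBRs of Tbx18, and the ranges of the loci overlap. Of the 30, 2 were among the 1000 highest-ranked peaks, or 6.67% (interval 1.85 to 21.3), beside 13.7% of all GBRs. These were ranks 819 and 964, at Tbx3 and Tbx18. The list gives 9 of the 30 an FDR of 0, or 30% (interval 16.7 to 47.9), beside 41.9% of all GBRs.

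**Figure D3:**
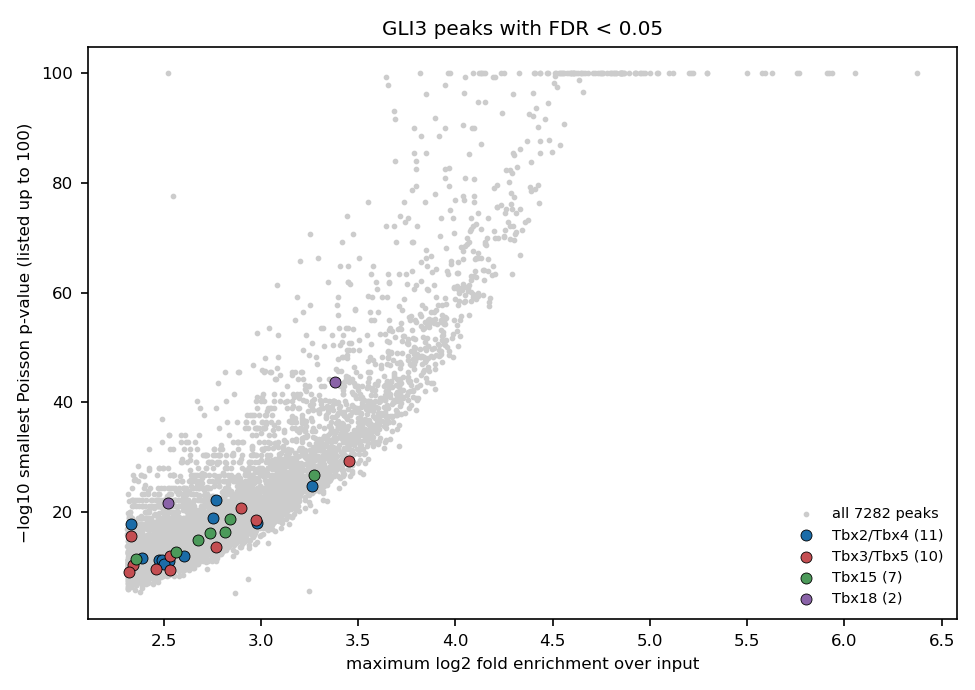
Each point is a GLI3 peak with an FDR under 0.05, placed by its maximum log2 fold enrichment over input (horizontal) and the −log10 of its smallest Poisson p-value (vertical, where the list stops at 100). Coloured points are the T-box peaks by locus and grey points all 7282. The T-box points lie between 2.32 and 3.45 in enrichment, and among them the rank 964 peak of Tbx18 is the highest on the vertical axis at 43.8.

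**Figure D4:**
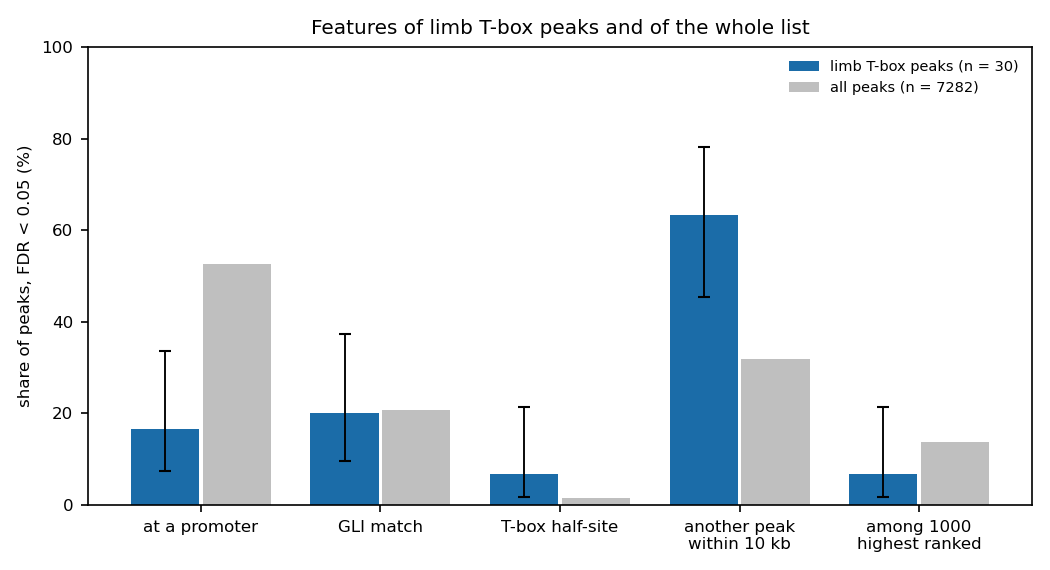
Share (%) of peaks with an FDR under 0.05 that have each feature, for the 30 T-box peaks (blue, with 95% Wilson intervals) and for all 7282 (grey). The intervals treat peaks as independent, which grouped peaks are not. Promoter position is less frequent among the T-box peaks (16.7% against 52.6%) and a second peak within 10 kb more frequent (63.3% against 31.8%), while GLI matches are at 20% against 20.8%.

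The 31 T-box peaks that did not pass the threshold were weaker by construction, with a median log2 enrichment of 1.98 beside 2.02 for all such peaks. Of these, 3 were at promoters (9.68%, interval 3.35 to 24.9), beside 44.8% of all listed peaks that missed the threshold, and 4 held a GLI match (12.9%, interval 5.13 to 28.9), beside 15.7%. Their matches were at ranks 8800, 10911, 11872 and 14193. The threshold itself fell at the Tbx3/Tbx5 locus, where rank 7151 (log2 enrichment 2.32, FDR 0.0374) was the lowest inside and rank 7489 (2.30, FDR 0.0704) the highest outside. Around the distance limit, rank 3145 was the farthest GBR inside at 199.9 kb from Tbx2. Rank 2711 lay just outside it at 213 kb, with a log2 enrichment of 2.85, and rank 260, at 263 kb from Tbx15, had a log2 enrichment of 3.98.

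Of the 11 other T-box genes, 7 had a GBR within 200 kb, beside 66.2% of protein-coding genes, and their median was 3 GBRs. These were Tbx6 and Tbx21 with 6 each, Tbx10 with 5, Tbx1, Eomes and T with 3 each, and Mga with 2. The 6 limb T-box genes had a median of 8. Distal GBRs numbered 2 at Tbx1, Eomes and T, 1 at Mga, and 0 at Tbx6, Tbx10 and Tbx21. Tbx19, Tbx20, Tbx22 and Tbr1 had no GBR in reach.

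Genes known to work with the T-box genes in the limb were taken as a second list. All 6 had at least 1 GBR within 200 kb, as did 66.2% of protein-coding genes, with a median of 3 beside 1. Within 100 kb 5 of the 6 had one, beside 52.2% of protein-coding genes, and Pitx1 had none. Sall4, a zinc finger partner of Tbx5, had 5, and Hand2, a regulator of the posterior limb bud, had 4. Fgf10, the growth factor target of Tbx5 that drives outgrowth, and Shox2, which acts in the proximal limb, had 3 each. Pitx1, the hindlimb selector upstream of Tbx4, had 2, and Bmp2, a signal of the posterior bud, had 1. Distal GBRs numbered 4 at Sall4 and at Hand2, 1 at Bmp2, and 0 at Pitx1, Fgf10 and Shox2. The highest in this list was at Bmp2, of rank 632 and log2 enrichment 3.59, 83.5 kb after its TSS.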

How the data were processed

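The GLI3 FLAG ChIP-seq data used here were 1 peak list, attached to ChIP replicate 1. It was taken to be 1 call made on both ChIP replicates, as the methods describe. According to the study's methods, peaks were called with CisGenome. The input library is taken here to be the control of that call. Bowtie2 2.2.5 and mm10 are named in the submitters' processing notes. In the deposited list the authors give each peak an FDR (a q-value), the maximum log2 fold enrichment over input, a T statistic (a score, not used further) and the smallest Poisson p-value as −log10, capped at 100. Peak lengths are as the authors deposited them. GENCODE M21 basic transcripts gave TSSs and gene positions. Motifs were searched in the RefSeq GRCm38 (mm10) sequence. Of the listed peaks, 5 are on unplaced sequence and were left out of windows and distances. Shares of peaks carry 95% Wilson intervals for counting error alone, and peaks are not independent. The study states a minimum sequencing depth, and the list gives no read total for any library. The search for exact motifs and the distances to the nearest TSS were checked on simulated data. The search with 1 mismatch and the counts were not checked in this way. Python 3.11.15, pandas 2.3.3, numpy 2.4.6, scipy 1.17.1 and pysam 0.24.0 were used. The members and gene lists were chosen with earlier results of these data known. Genes were named if they were members, held a GBR, had the nearest TSS to one, or had a GBR within reach as listed genes, and the 4 listed T-box genes without one were named to complete the list. GBRs given in full were the 3 highest of each locus, those with a GLI match and those at member promoters, and other peaks were named to place the groups. Groups, summits just inside and outside the limits, and the adjoining motifs were looked at after seeing the data.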

Additional observations from a re-analysis of the deposited data

How the results depend on the processing

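No paired analysis was made because the peak list gives no values for either ChIP replicate. For the same reason no replicate was left out. A share or median was taken as moved when it left the 95% interval of the reported value, and a count when it differed by more than 1.5 times. By this measure 9 of 36 alternative values moved. With a limit of 500 kb, 92 peaks were listed, 48 had an FDR under 0.05, and the median count per gene rose from 8 to 14. At 100 kb that median was 5. With an FDR under 0.01, 19 peaks remained of the 30, and counting neighbours within 10 kb as 1 left 18. Over all 61 listed peaks the median log2 enrichment was 2.30. The exact GLI consensus was found in 0% of the 30, and allowing 1 mismatch in the T-box half-site gave 36.7%, beside 32.8% of all GBRs. In whole peaks the exact half-site share fell from 6.67% to 3.33%, within its wide interval. All of these values come from other settings, and why they shifted was not tested. Promoter shares ran from 12.5% to 26.7% and GLI match shares with 1 mismatch from 13.3% to 31.2%, the last at 500 kb. Using all annotated transcripts, like the 10 kb joining, was tried after seeing the data and gave 61 and 30 peaks again. With 30 GBRs at 4 loci the intervals are wide, and absence of a listed peak does not show absence of binding.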
